A study of Mus musculus with 36 samples.

Results

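The metallothionein genes Mt1, Mt2 and Mt3 were examined in mouse hippocampus (HIP), nucleus accumbens (NAc) and prefrontal cortex (PFC) after chronic treatment with 3 inhibitors of histone deacetylases (HDACs). They were found by gene symbol in the array table, where each had 1 probe (ILMN_2596522 for Mt1, ILMN_1219154 for Mt2 and ILMN_2764651 for Mt3), so that 3 of 30854 gene symbols and 3 of 45281 probes are described. RNA was measured on 36 Illumina MouseWG-6 arrays, in 12 groups of 3. Adult male C57BL/6J mice were injected i.p. once a day for 10 days, and tissue was taken 1 h after the last injection. The groups received vehicle (saline, PEG-400 and DMSO, at 7.5 mL/kg), Cpd-60 at 45 mg/kg (7.5 mL/kg), SAHA at 25 mg/kg (5 mL/kg) or CI-994 at 10 mg/kg (5 mL/kg). Cpd-60 is a slow-binding benzamide selective for HDAC1 and HDAC2, SAHA is a hydroxamate that inhibits HDACs of both classes, and CI-994 is a benzamide that inhibits class I HDACs. SAHA and CI-994 were thus compared with a vehicle given in a larger volume.

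An array held the RNA of 2 mice, and the 3 pools of a treatment (mice 1 and 2, mice 3 and 4, mice 5 and 6, called pools 1, 2 and 3) gave all 3 regions, so that 12 pools, and not 36, are independent. For pool 2 of Cpd-60 the title and source of the labels name mice 3 and 4 while the description names mice 1 and 2. Should the description hold, pools 1 and 2 of Cpd-60 are the same mice, and the Cpd-60 differences and the correlations over pools are therefore also given without pool 2. The 36 arrays had median raw intensities of 82.2 to 108.3 and 95th percentiles of 349.9 to 1079.7, and the number of arrays limits the precision. In HIP, SAHA pools 2 and 3 were dimmer than the rest, with 95th percentiles of 437.7 to 452 against 593.6 to 850.1 on the other 10 arrays. The lowest and highest 95th percentiles of the 36 arrays, 349.9 and 1079.7, were those of Cpd-60 pools 1 and 3 in NAc. Each BeadChip (6 arrays on 1 slide) held a single region, so region and BeadChip cannot be told apart. Within a region, 1 BeadChip held vehicle pools 1 and 2, Cpd-60 pools 1 and 2 and the first pool of SAHA and of CI-994, and the other held the remaining 6 arrays. Markers of the regions matched the labels: 8 of 8 NAc markers, 5 of 6 PFC markers and 6 of 8 HIP markers had their highest mean in the labelled region.

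Metallothioneins are small cysteine-rich proteins that bind zinc and copper, buffer free zinc and take up reactive oxygen species. Mt1 and Mt2 are expressed in most tissues, in brain mainly by astrocytes, and are induced by heavy metals through the transcription factor MTF-1, which binds metal response elements, and also by glucocorticoids and by injury. Mt3, first described as growth inhibitory factor, is the brain-enriched form, found in astrocytes and in neurons that hold zinc in their synaptic vesicles, and it is much less inducible by metals. Mt4 is known from squamous epithelium. The 4 genes lie side by side on chromosome 8 in the order Mt4, Mt3, Mt2, Mt1 in the RefSeq annotation of GRCm38.p6, with 1 other gene, Gm39227, between them.

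The promoters of the 3 genes are shown because MTF-1, named above, acts through metal response elements. Each is the RefSeq window from 250 bases before to 50 after the annotated start of the gene on the plus strand of GRCm38.p6, at chr8:94178839-94179138 for Mt1, chr8:94172368-94172667 for Mt2 and chr8:94152357-94152656 for Mt3. Capitals mark matches to the metal response element core (TGCACNC or TGCGCNC on either strand).

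Mt1: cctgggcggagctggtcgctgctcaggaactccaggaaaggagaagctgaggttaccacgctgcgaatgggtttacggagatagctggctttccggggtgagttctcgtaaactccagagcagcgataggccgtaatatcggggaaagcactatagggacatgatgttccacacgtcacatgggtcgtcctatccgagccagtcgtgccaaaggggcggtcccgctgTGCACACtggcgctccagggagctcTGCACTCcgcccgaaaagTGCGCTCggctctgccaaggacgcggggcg

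Mt2: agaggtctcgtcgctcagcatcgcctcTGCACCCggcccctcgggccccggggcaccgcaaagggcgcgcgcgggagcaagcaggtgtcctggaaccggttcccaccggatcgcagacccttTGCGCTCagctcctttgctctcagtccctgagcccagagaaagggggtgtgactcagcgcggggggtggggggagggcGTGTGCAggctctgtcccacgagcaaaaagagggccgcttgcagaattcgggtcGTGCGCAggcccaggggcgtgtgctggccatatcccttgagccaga

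Mt3: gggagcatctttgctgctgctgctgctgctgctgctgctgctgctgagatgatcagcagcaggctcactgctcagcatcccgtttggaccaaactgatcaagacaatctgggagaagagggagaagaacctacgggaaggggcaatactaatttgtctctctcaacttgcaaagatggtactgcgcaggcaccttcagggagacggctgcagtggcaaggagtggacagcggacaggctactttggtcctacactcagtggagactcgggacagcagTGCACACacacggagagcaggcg

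The core matched 3 times in Mt1, 4 times in Mt2 and 1 time in Mt3. At least 1 match was found in 25.7% of 32851 promoters of the same length, and at least 3 in 1.969%. In Mt1 all matches were on the plus strand, with first bases at -23, 3 and 21 from the annotated start of the gene. In Mt2 they began at -223, -128, -50 and 5, the last pair being on the minus strand, and the match of Mt3 began at 28. Of the other motifs searched on both strands, the AP-1 core TGACTCA was found 1 time in Mt2 (5.202% of promoters held it). The Sp1 core GGGCGG was found 3 times in Mt1 (at least 3 matches in 10.71% of promoters and at least 1 in 35.66%), where 1 of its matches shares a base with a metal response element core. The TATA box in the form TATAAA was in none of the 3 windows (13.62%). The matches are a description of these letters, and binding was not measured. Sequence outside the windows was not searched, so a motif absent from a window can lie beyond it. Whether transcription begins at the annotated start in these tissues was not measured either.

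All 3 genes were detected in every group. Mt1 was among the brightest probes of the array: its raw intensity ranged from 5440.9 to 13683.4 (median 8004.7), it ranked between 4 and 72 from the top, and it reached 43.5% to 95.9% of the brightest probe on the same array. Mt3 ranged from 944.3 to 7197.4 (median 3024.3), at ranks 110 to 1244. The Mt2 probe was dim, at 101.1 to 302.9 (median 137.6), which is 1.04 to 2.92 times the median of its array. Its detection p-value was at most 0.01 on 35 of the 36 arrays and at most 0.05 on 36, with 0.035 the highest. Probes differ in how well they hybridize, so the levels of the 3 probes were not set against each other. The probe of Mt4 (ILMN_2740391) had a detection p of at most 0.05 on 0 of 36 arrays, with raw intensities of 68.7 to 107.2. All values below are log2 of the quantile-normalized intensity, and differences are log2 differences.

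**Figure D1:**
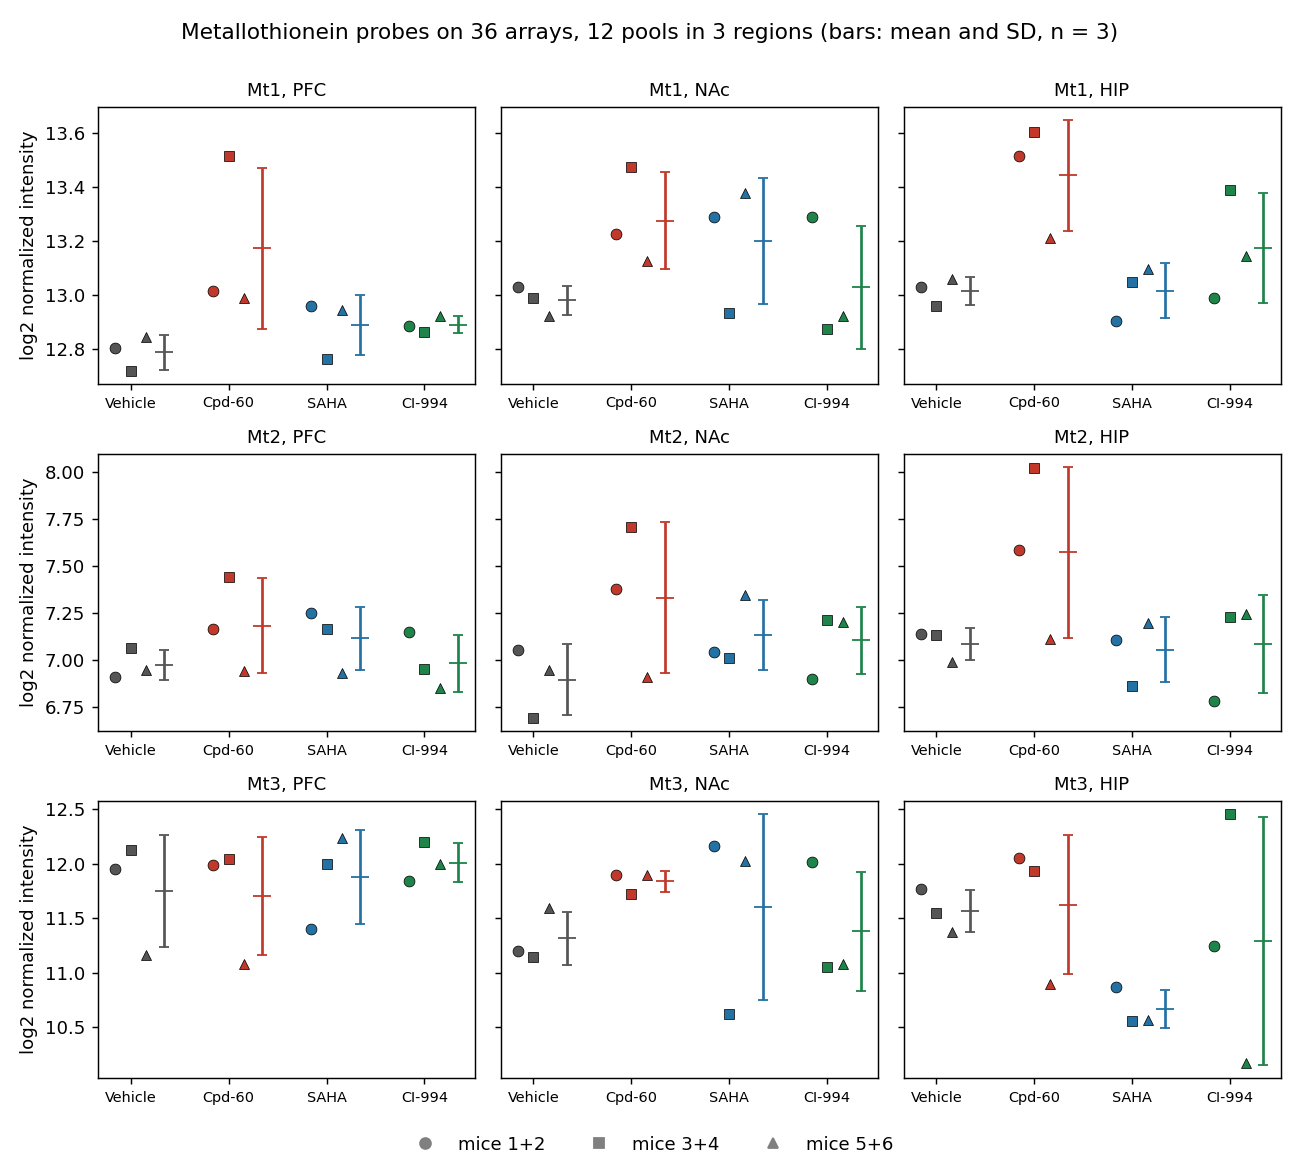
Level of each metallothionein probe (log2 normalized intensity, y axis, scaled per gene) on all 36 arrays, by region and treatment. Symbols are the 3 pools and the bars give mean and SD (n = 3): Mt1 under Cpd-60 lies above vehicle in each region, and Mt3 scatters over the widest range, with its 3 SAHA pools in HIP between 10.56 and 10.87.

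Over the 12 groups, mean Mt1 levels ran from 12.79 ± 0.064 (SD, n = 3) in PFC of vehicle mice to 13.44 ± 0.21 in HIP of Cpd-60 mice, a span of 0.66. Mt2 ran from 6.90 ± 0.19 in NAc of vehicle mice to 7.57 ± 0.46 in HIP of Cpd-60 mice. Mt3 had the widest span, 1.35, from 10.66 ± 0.18 in HIP of SAHA mice to 12.01 ± 0.18 in PFC of CI-994 mice. The top 2 places in the order were held by Cpd-60 in HIP and NAc for both Mt1 and Mt2. The median SD between pools over the groups was 0.14 for Mt1, 0.18 for Mt2 and 0.47 for Mt3 (up to 1.15 in HIP under CI-994). No background was removed from these values and the Mt2 probe was dim, so spans and SDs of the 3 probes are not on 1 scale. Groups next to each other in the order overlapped in each of the 11 pairs of each gene. The gap between neighbours was larger than the larger of their SDs in 1 of 11 pairs for Mt1 (NAc under vehicle over PFC under CI-994, by 0.091) and in 0 of 11 for Mt2 and for Mt3.

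The family was selected on measured values of these arrays: each drug against vehicle in each region and the regions under vehicle were part of its choice. Mt3 under SAHA in HIP, where only 0.0129% of tested probes had a lower difference, was among them. These contrasts are therefore described with their standard errors and without a test.

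Mt1 was higher under Cpd-60 in all 3 regions. In PFC the vehicle pools were at 12.80, 12.72 and 12.84 and the Cpd-60 pools at 13.01, 13.51 and 12.99. The difference was 0.39 (SE 0.12), or 1.31-fold. In NAc vehicle pools were at 13.03, 12.99 and 12.92 and Cpd-60 pools at 13.22, 13.47 and 13.12, a difference of 0.29 (SE 0.14). In HIP vehicle pools were at 13.03, 12.96 and 13.06 and Cpd-60 pools at 13.51, 13.60 and 13.21, a difference of 0.43 (SE 0.11), or 1.34-fold. With quantile normalization the groups did not overlap in any region, since the lowest Cpd-60 pool was above the highest vehicle pool each time. As multiples of the array median the NAc groups overlapped, with Cpd-60 pool 1 at 77.8 and vehicle pool 3 at 97.3. Those of PFC and HIP did not overlap by that measure. Among all tested probes, all Cpd-60 pools lay above all vehicle pools for 4.87% in PFC, 4.26% in NAc and 5.78% in HIP. Nothing is read from this count of members, since the comparison was in the rule that chose them.

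The size of the Mt1 difference varied with the pool. Pool 2 was the highest of the Cpd-60 pools in each region. Without it the difference was 0.21 in PFC, 0.19 in NAc and 0.35 in HIP. In the quantile-normalized values the remaining 2 pools still lay above the vehicle pools. Within the BeadChip that held pools 1 and 2 the difference was 0.51, 0.34 and 0.57 in PFC, NAc and HIP, and within the BeadChip of pool 3, with 1 array of vehicle and 1 of Cpd-60, it was 0.14, 0.20 and 0.15.

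Under SAHA the Mt1 pools were at 12.96, 12.76 and 12.94 in PFC, 13.29, 12.93 and 13.38 in NAc and 12.90, 13.05 and 13.10 in HIP. These overlapped the vehicle pools in each region, with differences of 0.10, 0.22 and 0.00030 (0.20 in PFC and -0.49 in HIP with each array scaled by its median alone). The HIP value lay between -0.041 and 0.057 with 1 pool left out. Under CI-994 the pools were at 12.88, 12.86 and 12.92 in PFC, 13.29, 12.87 and 12.92 in NAc and 12.99, 13.39 and 13.14 in HIP. The differences were 0.10, 0.048 (-0.082 without CI-994 pool 1) and 0.16, and the CI-994 pools lay above the vehicle pools in PFC (5.76% of tested probes did), by a gap smaller than the SD of the vehicle pools. As multiples of the array median the PFC groups overlapped, with CI-994 pool 1 at 62.0 and vehicle pool 1 at 71.2. The SE of the Mt1 differences was 0.11 to 0.14, and the drugs were given at different doses, so they are set side by side and not compared.

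**Figure D2:**
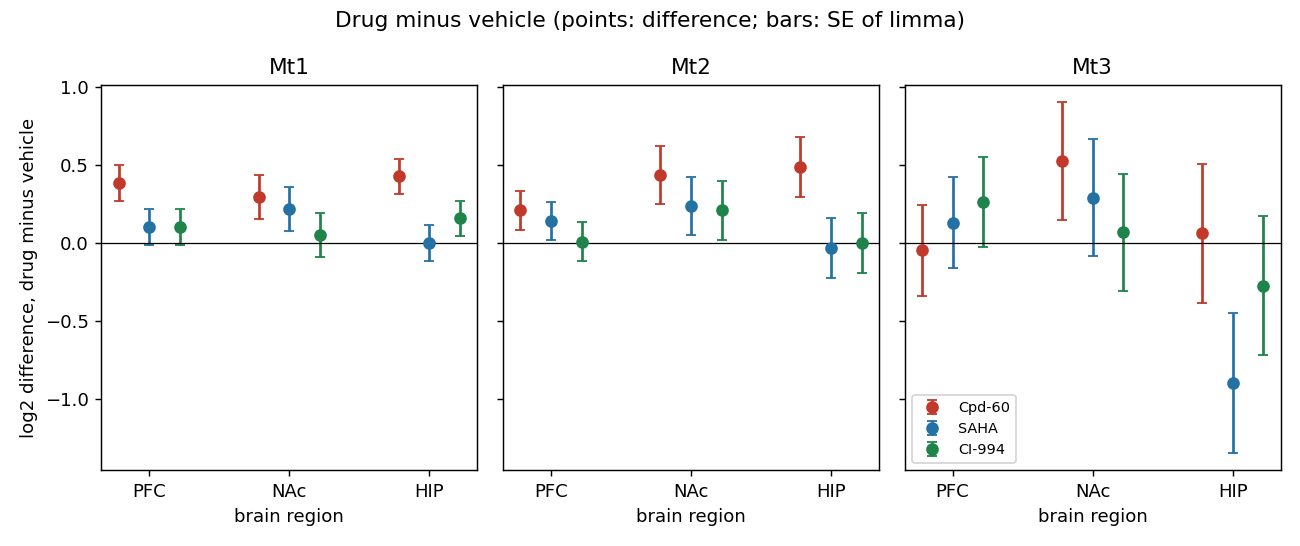
Log2 difference between drug and vehicle (y axis) for each metallothionein probe in the 3 regions (x axis), with 3 pools per group; points are the differences and bars the SE from limma. The Cpd-60 differences of Mt1 (0.29 to 0.43) and Mt2 (0.21 to 0.49) are above 0 in each region, while Mt3 has wide bars and its lowest value, -0.90, under SAHA in HIP.

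Mt2 was also higher on average under Cpd-60 in each region. It was at 7.16, 7.44 and 6.94 in PFC against 6.91, 7.06 and 6.95 under vehicle, a difference of 0.21 (SE 0.12). In NAc it was at 7.38, 7.71 and 6.91 against 7.05, 6.69 and 6.95, a difference of 0.44 (SE 0.19), and in HIP at 7.59, 8.02 and 7.11 against 7.14, 7.13 and 6.99, a difference of 0.49 (SE 0.19). The groups overlapped in each region, because pool 3 of Cpd-60 stayed within the range of the vehicle pools while pools 1 and 2 were above it. Without pool 2 the differences were 0.078, 0.25 and 0.26, and without pool 3 they were 0.33, 0.65 and 0.72 in PFC, NAc and HIP. Within the BeadChip of pool 3 they were -0.0081, -0.038 and 0.12. With neqc normalization, which corrects the background of dim probes, the differences were 0.45, 0.95 and 0.88.

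Under SAHA the Mt2 pools were at 7.25, 7.16 and 6.93 in PFC, 7.04, 7.01 and 7.35 in NAc and 7.10, 6.86 and 7.20 in HIP. The differences from vehicle were 0.14, 0.24 and -0.032, the last at -0.23 with array medians alone. Under CI-994 they were at 7.15, 6.95 and 6.85, at 6.90, 7.21 and 7.20 and at 6.78, 7.23 and 7.24, with differences of 0.0089, 0.21 and -0.0015. All of these groups overlapped with vehicle, and the SE was 0.12 to 0.19. With 1 pool left out the sign turned for SAHA in HIP (-0.10 to 0.065) and for CI-994 in PFC (-0.074 to 0.076) and HIP (-0.081 to 0.15).

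Mt3, the brain-enriched member, did not share this order. Its vehicle pools were at 11.95, 12.13 and 11.16 in PFC, 11.20, 11.14 and 11.59 in NAc and 11.77, 11.55 and 11.38 in HIP. Under Cpd-60 it was at 11.99, 12.04 and 11.08 in PFC and 12.05, 11.93 and 10.89 in HIP, which overlapped vehicle (-0.047, SE 0.29, and 0.062, SE 0.45). In NAc the quantile-normalized Cpd-60 pools, at 11.89, 11.72 and 11.90, all lay above the vehicle pools (as did 4.26% of tested probes), a difference of 0.53 (SE 0.38). As multiples of the array median they were at 24.8, 30.7 and 55.5 against 17.9, 20.6 and 38.9 under vehicle, which overlap. Pools 1 and 3 are the dimmest and brightest arrays named above, and the part of brightness in these values was not tested. Pool 3 was the lowest of the Cpd-60 pools for Mt3 in PFC and HIP but not in NAc. Without Cpd-60 pool 2 the differences were -0.22 in PFC, 0.58 in NAc and -0.090 in HIP, and without pool 3 those of PFC and HIP were 0.27 and 0.43, so that neither had a settled sign.

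Under SAHA the 3 Mt3 pools of HIP were at 10.87, 10.56 and 10.57, all below the vehicle pools. The difference of -0.90 (SE 0.45) corresponds to 0.536 times the vehicle level. All SAHA pools lay below all vehicle pools for 10.8% of tested probes in this region, and nothing is read from the count. Pools 2 and 3 are the dimmer arrays named above, and pool 1 was 0.79 below the mean of the vehicle pools on its BeadChip. Pool 1 was not dim by its 95th percentile (665.2), but all 3 SAHA arrays had few detected probes. At a detection p of at most 0.01 the shares were 34.3%, 32.1% and 32.3%, against 37.3% to 39.7% on the other HIP arrays. The part of this in the Mt3 difference was not tested. With the BeadChip as a block the difference was -0.76 (SE 0.44). With each array scaled by its median alone, in place of quantile normalization, it was -1.53, where the median of all tested probes moved by -0.19. In the other regions the SAHA pools were spread widely: 11.40, 12.002 and 12.24 in PFC (difference 0.13, SE 0.29) and 12.17, 10.62 and 12.02 in NAc (0.29, SE 0.38). With 1 pool left out these ran from -0.16 to 0.37 in PFC and from 0.0077 (without SAHA pool 1) to 0.78 (without SAHA pool 2) in NAc, while in HIP the difference stayed between -1.003 and -0.80. The 2 BeadChips differed in sign, with SAHA minus vehicle at -0.64 and 0.96 in PFC and at 1.00 and -0.27 in NAc.

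Under CI-994 Mt3 was at 11.84, 12.20 and 11.996 in PFC and 12.01, 11.05 and 11.08 in NAc, with differences of 0.26 and 0.067. Here too the BeadChips differed in sign, at -0.20 and 0.93 in PFC and at 0.84 and -0.53 in NAc. In HIP its pools, at 11.24, 12.46 and 10.17, held both the highest and the lowest of the 36 Mt3 values. The difference there, -0.27 (SE 0.45), was smaller than the spread of the pools. It was -0.86 without CI-994 pool 2 and 0.29 without pool 3. In PFC the difference was -0.030 without vehicle pool 3, and in NAc it was -0.25 without CI-994 pool 1.

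Marker genes of cell types moved with some of these groups. Levels in bulk tissue cannot tell fewer cells of a type from less RNA per cell. Of 12 astrocyte markers on the array 10 were detected on all 36 arrays and none was undetected throughout. Their summed normalized intensity in HIP was 17846 to 19603 under vehicle and 20349 to 21614 under Cpd-60, which do not overlap, while under SAHA it was 19244 to 19837. In PFC the sum was 16013 to 16677 under vehicle and 16538 to 17968 under Cpd-60, and in NAc 14955 to 15477 and 14969 to 17711, which overlap. In NAc under SAHA, where Mt1 pools 1 and 3 were high, it was 16644 to 18422. Under Cpd-60 the median difference of the tested astrocyte markers was 0.11 in PFC, 0.12 in NAc and 0.12 in HIP. In HIP under SAHA, where Mt3 was low, the sum of 8 oligodendrocyte markers was 22601 to 25035 against 26162 to 29218 under vehicle, with a median difference of -0.20 over the 8 genes. The neuronal sum there, 12548 to 13397, overlapped the vehicle range of 12927 to 13724, but the median difference of the 4 tested neuronal markers was -0.27, with 1 of 4 above 0. The oligodendrocyte sum was also below vehicle in HIP under CI-994, at 23726 to 26107. The sum of 3 blood markers in HIP was 8374 to 9783 under vehicle and below that under each drug: 6751 to 8235 under Cpd-60, 5228 to 8316 under SAHA and 5408 to 5723 under CI-994. The median of the blood markers was below 0 in 9 of 9 comparisons, and their sum was below vehicle without overlap in 5, the other 2 being SAHA in PFC and NAc. The sum of 3 ependymal markers in HIP was 433 to 453 under Cpd-60 and 399 to 449 under SAHA against 466.2 to 530.9 under vehicle. In HIP, blood and ependymal markers were thus low in the group with the highest Mt1 and Mt2 and in the one with the lowest Mt3. The sum of 6 choroid plexus markers in HIP varied widely within groups, from 3034 to 11206 under vehicle and 1545 to 11201 under CI-994. The sum of 7 endothelial markers in HIP was higher under SAHA, at 1462 to 1529 against 1409 to 1454 under vehicle. The part of these shifts in the metallothionein values was not tested.

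Genes that handle zinc and other metals showed few differences from vehicle. No probe passed an adjusted p of 0.05 with limma in any of the 9 drug comparisons. With a looser rule, unadjusted p under 0.05 and 1.2-fold, 1.11%, 1.78% and 1.53% of tested probes differed under Cpd-60 in PFC, NAc and HIP, 0.217%, 0.546% and 3.17% under SAHA and 0.654%, 0.383% and 0.67% under CI-994. By that rule 2 of 72 gene tests in the list for metal sensing and zinc export passed. Mtf1, which encodes the metal-responsive factor MTF-1, was higher under Cpd-60 in PFC by 0.31 (SE 0.14, adjusted p = 0.938 by limma), and its differences in NAc and HIP, 0.25 and 0.22, did not pass. Slc30a5, a zinc transporter of the secretory pathway, was lower under SAHA in HIP, at -0.29 (SE 0.078). Slc30a1, the zinc exporter of the plasma membrane and another known target of MTF-1, was not tested in PFC. Under Cpd-60 it differed by -0.063 in NAc and 0.082 in HIP, neither passing. Its probe was dim, with a mean of 6.73 over the 36 arrays, where the undetected Mt4 probe was at 6.28 to 6.64. These values therefore say little on whether Slc30a1 responded. Slc30a3, which loads zinc into synaptic vesicles, differed by 0.11, -0.27 and -0.26 in PFC, NAc and HIP under Cpd-60, and passed in 0 comparisons.

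Among zinc importers 0 of 99 gene tests passed, and among genes of antioxidant defence 0 of 147, where 6 and 3 had an unadjusted p under 0.05 at less than 1.2-fold. Of 135 tests on genes for copper and iron handling 3 passed, all under SAHA: Trf (transferrin) was higher in PFC by 0.29 and lower in HIP at -0.43, and Atox1, a copper chaperone, was higher in HIP by 0.33. Glucocorticoids are among the known inducers of Mt1 and Mt2 named above. Of 13 tested genes that they induce, 8 passed the unadjusted rule in PFC, 5 in NAc and 8 in HIP under Cpd-60, all higher (0.673%, 0.809% and 0.726% of tested probes were), with medians of 0.48, 0.42 and 0.36 beside -0.0027, -0.0040 and -0.0018 over all tested probes. Sgk1, a serum and glucocorticoid-regulated kinase, was higher by 0.60, 0.75 and 0.89, and Tsc22d3, which encodes the glucocorticoid-induced leucine zipper, by 0.55, 0.85 and 0.43. Cdkn1a, the cell cycle inhibitor p21, was higher by 0.79 in NAc and 1.06 in HIP, and its value of 0.22 in PFC did not pass. Under SAHA 0 of the 13 passed in any region, with medians of 0.036, 0.014 and 0.017 in PFC, NAc and HIP. Under CI-994 only Cdkn1a in PFC passed, at -0.53. The list was chosen with these arrays in view and is not independent evidence. Whether glucocorticoids have a part in the metallothionein values was not tested.

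Under vehicle, Mt1 was lower in PFC than in the other regions in each of the 3 pools. The NAc was higher than the PFC by 0.19 (SE 0.065) and the HIP by 0.23 (SE 0.065), with each pool of mice differing in the same direction, and HIP minus NAc was 0.036, and -0.014 without pool 3. Mt2 was higher in HIP than in PFC by 0.11 and than in NAc by 0.19 (SE 0.10 for both), in 3 of 3 pools each. Without pool 1 the first was 0.053, and without pool 2 the second was 0.064. NAc minus PFC of Mt2 was -0.078, and 0.072 without pool 2. For Mt3 NAc minus PFC was -0.44 (SE 0.23), lower in 2 of 3 pools, with pool 3 being the lowest in PFC and the highest in NAc. HIP minus PFC was -0.19 (0.014 without pool 2), and HIP minus NAc was 0.25 (0.093 to 0.48 with 1 pool left out).

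The contrast of regions in the choice of the genes used vehicle arrays, and the differences between regions were tested on the 27 arrays of drug-treated mice, with the 9 pools of mice as a block. The same 27 arrays entered the choice through each drug against vehicle, so these tests are not independent of it, and nothing is supported with their p-values. In these arrays 37.1% of 25888 tested probes differed between NAc and PFC at an adjusted p under 0.05, 41.7% between HIP and PFC (18.3% higher and 23.4% lower in HIP) and 27.7% between HIP and NAc. Mt1 ranged from 12.76 to 13.51 (median 12.94) in PFC, from 12.87 to 13.47 (median 13.22) in NAc and from 12.90 to 13.60 (median 13.14) in HIP. The ranges overlapped, but within pools the HIP was higher than the PFC in 8 of 9, by 0.23 (SE 0.072, adjusted p = 0.015 by limma). Without Cpd-60 pool 1 it was 0.19 and missed the threshold (adjusted p = 0.055), and in the 18 arrays of SAHA and CI-994 it was 0.21 and missed it too (adjusted p = 0.12). The NAc was higher than the PFC in 7 of 9 pools, by 0.18 (SE 0.072), which just missed the threshold (adjusted p = 0.052). HIP minus NAc was 0.043 (adjusted p = 0.72), and -0.019 in the SAHA and CI-994 arrays.

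**Figure D3:**
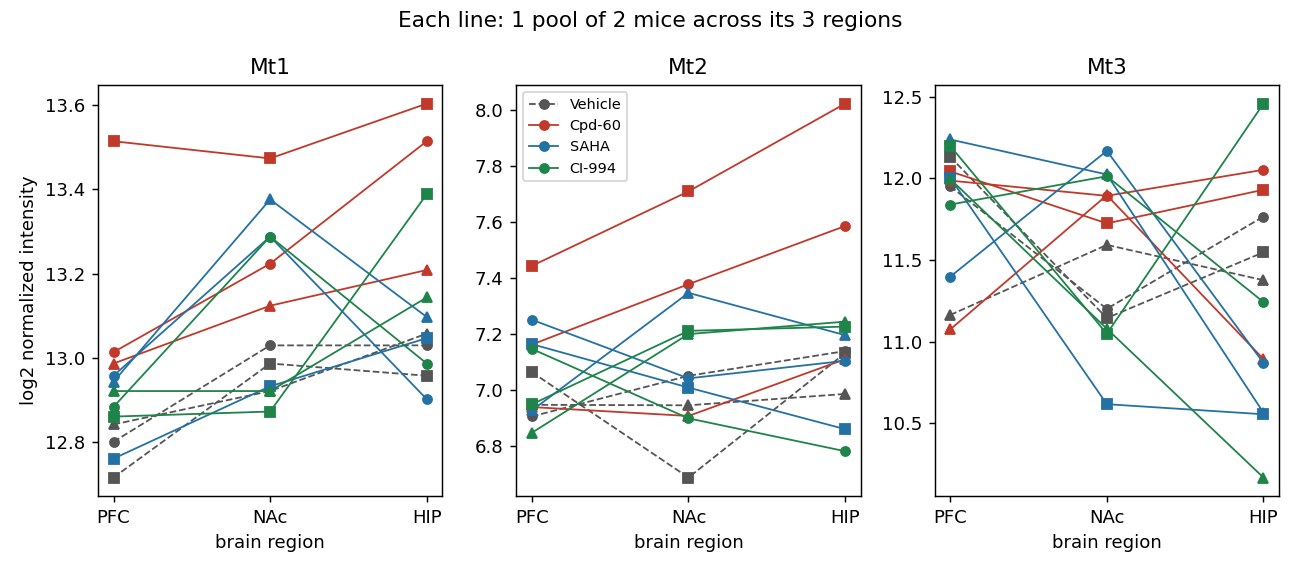
Level of Mt1, Mt2 and Mt3 (log2 normalized intensity, y axis, scaled per gene) in the 3 regions (x axis). Each line joins the regions of 1 pool of 2 mice, dashed for vehicle: Mt1 is higher in HIP than in PFC in 3 of 3 vehicle and 8 of 9 drug-treated pools, and Mt3 is lower there in 7 of 9 drug-treated pools.

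Mt3 went the other way. It ranged from 11.08 to 12.24 (median 11.996) in PFC, 10.62 to 12.17 (median 11.89) in NAc and 10.17 to 12.46 (median 10.89) in HIP. The HIP was higher than the PFC in only 2 of 9 pools, and the difference of -0.67 (SE 0.25) passed the threshold (adjusted p = 0.038 by limma). These arrays entered the choice of the genes, so nothing is supported with this p-value or those below. The call includes the SAHA arrays of HIP, the lowest group of Mt3, and rested on a few arrays. Without the 2 dimmer HIP arrays of SAHA the difference was -0.49 (adjusted p = 0.17). Within single drugs it was -0.076 for Cpd-60, -1.22 for SAHA and -0.72 for CI-994. These are given without a test, since each drug against vehicle in each region was in the choice of the genes. With the BeadChip as a random block neither HIP call held: the difference was 0.22 for Mt1 (adjusted p = 0.067) and -0.66 for Mt3 (adjusted p = 0.13). Neither held with array medians alone (adjusted p = 0.19 for both). For Mt3 the NAc differed from PFC by -0.26 (adjusted p = 0.47) and the HIP from NAc by -0.41 (adjusted p = 0.25), where the vehicle arrays had the opposite sign (0.25). Whether vehicle and treated arrays differ in this was not tested.

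Mt2 did not differ between regions past the threshold. It ranged from 6.85 to 7.44 in PFC, 6.90 to 7.71 in NAc and 6.78 to 8.02 in HIP, and the differences were 0.097 for NAc minus PFC (adjusted p = 0.39), 0.14 for HIP minus PFC (0.17) and 0.048 for HIP minus NAc (0.73), each with an SE of 0.082. Within the Cpd-60 arrays alone HIP minus PFC was 0.39, with 0.42, 0.58 and 0.17 in pools 1, 2 and 3. This is given without a test, since Cpd-60 against vehicle in each region was in the choice of the genes. In the SAHA and CI-994 arrays HIP minus PFC was 0.021, and whether the drugs differ was not tested.

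Whether the 3 genes vary together from pool to pool was tested within each region over the 12 pools, with the mean of each treatment removed. The p-values are from an exact permutation of pools within treatments (two-sided, 1296 arrangements), which cannot go below 0.00077. Mt1 and Mt2 were most closely related in HIP, with r = 0.74 and rho = 0.60 (exact permutation p = 0.087 and 0.14). Relative to its treatment, Cpd-60 pool 3 was the lowest of the 12 for both genes, Cpd-60 pool 2 was the highest for Mt2 and CI-994 pool 2 the highest for Mt1. Within the 2 BeadChips of HIP r was 0.84 and 0.76, and without the 2 pools farthest from the median of Mt1 it was 0.40. In PFC r was 0.52 (rho = 0.27, exact permutation p = 0.44 and 0.53), and it was -0.22 without the 2 farthest pools, so that it rested on those pools. In NAc r was 0.32 (rho = 0.27, exact permutation p = 0.41 and 0.47). Without Cpd-60 pool 2 it was -0.25 in PFC, 0.036 in NAc and 0.66 in HIP.

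Mt1 and Mt3 had r = 0.73 in NAc (rho = 0.66, exact permutation p = 0.11 for both), with 0.49 and 0.83 within the BeadChips and 0.44 without the 2 farthest pools. In HIP r was 0.61 (rho = 0.49, exact permutation p = 0.21 and 0.25), with 0.76 and 0.79 within the BeadChips, and in PFC it was 0.17 (rho = 0.098, exact permutation p = 0.81 and 0.85) and -0.54 without the 2 farthest pools. For Mt2 and Mt3 r was 0.18 in PFC, -0.062 in NAc and 0.35 in HIP (rho = 0.16, -0.13 and 0.36, with exact permutation p of 0.68, 0.88 and 0.41 for r and 0.68, 0.71 and 0.41 for rho). None of the 9 relations passed after Benjamini-Hochberg adjustment, with the lowest adjusted p at 0.48 for r and 0.65 for rho. Without Cpd-60 pool 2 r of Mt1 and Mt3 was -0.36 in PFC, 0.87 in NAc and 0.59 in HIP, and r of Mt2 and Mt3 was -0.048, -0.0032 and 0.31. Again none of the 9 passed (lowest adjusted p 0.80 for r, exact permutation over 432 arrangements).

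**Figure D4:**
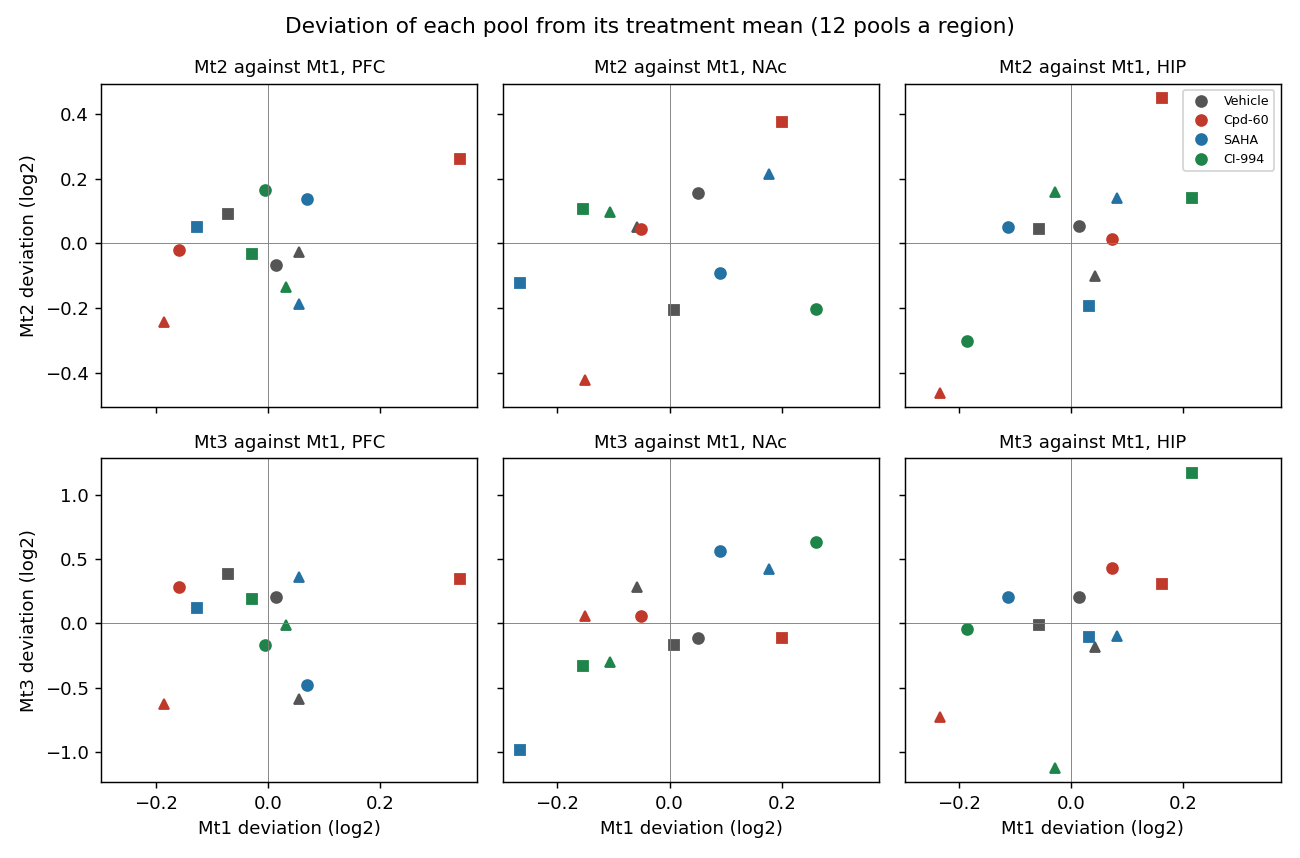
Deviation of each pool from the mean of its treatment (log2) for Mt2 and Mt3 (y axes) against Mt1 (x axis), 12 pools per region; colours are treatments, and circles, squares and triangles are pools 1, 2 and 3. In HIP, Cpd-60 pool 3 is at the lower left and pool 2 at the upper right for Mt2 (r = 0.74); r does not pass the test in any panel.

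The genes whose pattern was most like each member were taken over all 36 arrays, as Pearson's r of values with the region mean removed, among 11337 or 11338 probes detected on all arrays. These correlations are a description: the arrays share pools of mice and treatments, and genes of one array share its quality. For Mt1 the 5 highest were Sdc4 (a cell surface proteoglycan, r = 0.80), Ybx3 (a cold-shock domain protein, 0.79), Htra1 (a secreted protease, 0.77), Nfkbia (the inhibitor of NF-kappa-B, 0.77) and Rhou (a small GTPase, 0.76). For Mt2 they were Cdkn1a (0.74), Tsc22d3 (0.73), Lrrtm1 (a synaptic adhesion protein, 0.72), Plat (tissue plasminogen activator, 0.72) and Cacng5 (an auxiliary subunit of AMPA receptors, 0.71). The genes nearest to Mt1 also had r of 0.65 to 0.71 with Mt2, and those nearest to Mt2 had r of 0.63 to 0.75 with Mt1.

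Mt3 had closer neighbours of a different kind. Ap2a1 (a subunit of the clathrin adaptor AP-2) was at r = 0.96, Scaf1 (a splicing-related factor) at 0.95, and Tubb4 (a beta-tubulin), Pacsin1 (a protein of neuronal endocytosis) and Wbscr17 (a glycosyltransferase) at 0.94, 0.94 and 0.93. Their r with Mt1 was 0.44 to 0.54 and with Mt2 0.25 to 0.41. Mt3 was also related to the brightness of the array, with r = 0.43 to its 95th percentile of raw intensity and 0.46 to its share of detected probes, and its 5 neighbours had r of 0.40 to 0.47 with that percentile. For Mt1 these were 0.22 and 0.18 and for Mt2 -0.049 and 0.011. The part of array brightness in the Mt3 values was not tested.

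Of the 12 astrocyte markers, 8 had r above 0 with Mt1 (median 0.35, highest Gfap at 0.63), 10 with Mt2 (median 0.18, highest Gjb6 at 0.51) and 7 with Mt3 (median 0.036). Mt3 had opposite signs with astrocyte genes, at 0.80 with Gfap, the intermediate filament of astrocytes, and -0.70 with Slc1a3, their glutamate transporter GLAST. Of 11 glucocorticoid-induced genes detected on all arrays, all 11 had r above 0 with Mt1 (median 0.63) and with Mt2 (median 0.66), and 9 with Mt3 (median 0.20). Treatment means were kept in these values, and all 13 tested genes of the list had differences above 0 under Cpd-60 in each region. The r with Mt1 and Mt2 thus repeats in part the contrast by which the family was chosen, and nothing is read from the counts. The median over all probes compared was 0.020, -0.017 and 0.015 for Mt1, Mt2 and Mt3.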

How the data were processed

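For each of 36 arrays the authors deposited unnormalized linear intensities of 45281 probes, with no background removed, and the detection p-values of the probes. Samples were grouped by treatment and region from their labels. Analysis used R 4.3.3 and limma 3.58.1. Intensities of all 36 arrays were quantile normalized as 1 set, floored at 1 and log2 transformed. A probe was tested where its detection p was at most 0.2 on all 3 arrays of at least 1 group, the reading given here to the presence filter of the methods. Drugs were compared with vehicle by limma within each region (12 arrays, no covariates). Regions were compared with the pool of mice as a block. Adjustment was by Benjamini-Hochberg over all tested probes, at 0.05. The metallothioneins, the gene lists (metal sensing and zinc export, zinc import, copper and iron handling, antioxidant defence, glucocorticoid-induced genes) and the cell type markers were chosen with earlier results of these data known. Besides the members, the genes named are the 5 most like each member, Mtf1, Slc30a1 and Slc30a3, and up to 3 genes of each list that passed the unadjusted rule most often, by the probe with the highest mean; Slc1a3 was named after its value was seen.

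The regions of a pool are paired through the labels, which give them the same mice. Their deviations from group means over tested probes correlated between -0.46 and 0.56 (median -0.018, 36 pairs). The number of a pool is given to different mice under different treatments, so the labels do not pair them by it. Arrays of 1 region with the same number nevertheless correlated between -0.42 and 0.86 (median 0.21, 54 pairs, 32 of them over 0.1), and the pool number goes in part with the BeadChip, so the number was also tried as a block.

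On simulated data of the same size, limma recovered 100%, 95% and 99.5% of 200 probes changed by 1 log2 unit for SAHA against vehicle in PFC, NAc and HIP, and 100% for HIP minus PFC. In the drug comparisons the simulated noise was independent between arrays, without BeadChip or brightness effects. Smaller changes were not simulated, so the rates do not give the recovery of differences of the size described here. The alternatives were neqc normalization (offset 16), array medians alone, 27 arrays normalized together, other detection filters, BeadChip and replicate blocks, single drugs and each pool left out. Leaving out the 2 dimmest HIP arrays, the Cpd-60 arrays and, in the correlations, Cpd-60 pool 2 was added after seeing the data. Promoters were matched by symbol for 3 of 3 genes.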

Additional observations from a re-analysis of the deposited data

How the results depend on the processing

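Of the 27 differences between a drug and vehicle, none moved by as much as the spread between pools with the BeadChip or the replicate block (number of the pool) in the model or with each pool left out. That spread is wide, and with 1 pool left out 11 of the 27 changed sign: 6 of Mt3 (the Cpd-60 and CI-994 values but for Cpd-60 in NAc, and SAHA in PFC), 3 of Mt2 and 2 of Mt1, none with a size above 0.27. For Mt1 under Cpd-60 in PFC the value with the replicate block was 0.39. With neqc normalization the dim Mt2 probe had larger differences: under Cpd-60 0.45 in PFC, 0.95 in NAc and 0.88 in HIP, under SAHA 0.32 in PFC and 0.60 in NAc, under CI-994 0.53 in NAc, and between regions under vehicle -0.24 (NAc minus PFC), 0.27 (HIP minus PFC) and 0.51 (HIP minus NAc). With array medians alone, SAHA minus vehicle was 0.20 for Mt1 in PFC and, in HIP, -0.49, -0.23 and -1.53 for Mt1, Mt2 and Mt3. The cause was not tested. Depth of signal limits Mt2 most, since its probe was near the array median.

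Under vehicle, leaving out 1 pool gave -0.19 to 0.072 for Mt2 NAc minus PFC (0.072 without pool 2), -0.87 to -0.16 for Mt3 NAc minus PFC and 0.093 to 0.48 for Mt3 HIP minus NAc. In the treated arrays, array medians alone gave 0.25 for Mt1 and -0.71 for Mt3 HIP minus PFC (adjusted p = 0.19 for both) and -0.024 for Mt1 HIP minus NAc, and the BeadChip as a random block 0.22 and -0.66 (adjusted p = 0.067 and 0.13). With no detection filter Mt3 HIP minus PFC stayed at -0.67 but missed the threshold (adjusted p = 0.061), since more probes were adjusted over, and with detection p at most 0.01 Mt1 NAc minus PFC, 0.18, passed (adjusted p = 0.042). Without the 2 dimmest HIP arrays Mt3 HIP minus PFC was -0.49. In the SAHA and CI-994 arrays Mt1 HIP minus PFC was 0.21 and missed the threshold, and HIP minus NAc was -0.019 for Mt1 and -0.049 for Mt2. No replicate block changed no call. The treated arrays entered the choice of the genes, so nothing is supported with these p-values or with the calls given here.

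With single drugs, which leave 9 arrays, HIP minus PFC for Mt1 was 0.27 (Cpd-60), 0.13 (SAHA) and 0.28 (CI-994). For Mt3 it was -0.076, -1.22 and -0.72, and for Mt2 0.39 under Cpd-60 and -0.060 under SAHA. These comparisons lie inside the choice of the genes and are left without a test. NAc minus PFC of Mt3 was 0.14 under Cpd-60, and HIP minus NAc was -0.18 for Mt1 and -0.079 for Mt2 under SAHA and -0.019 for Mt2 under CI-994. Leaving out 1 pool gave 0.19 to 0.26 for Mt1 HIP minus PFC (missed without Cpd-60 pool 1), 0.15 to 0.21 for Mt1 NAc minus PFC (passed without Cpd-60 pool 2 or CI-994 pool 2), -0.016 to 0.097 for Mt1 HIP minus NAc, 0.090 to 0.21 for Mt2 HIP minus PFC (passed without CI-994 pool 1), -0.79 to -0.53 for Mt3 HIP minus PFC (missed without SAHA pool 2, SAHA pool 3, CI-994 pool 1 or CI-994 pool 3) and -0.64 to -0.28 for Mt3 HIP minus NAc (passed without CI-994 pool 2).

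Probes passing between regions numbered 9594, 10793 and 7178 (NAc minus PFC, HIP minus PFC, HIP minus NAc), 5520, 5137 and 3791 with array medians alone, 3065, 4348 and 2654 in the Cpd-60 arrays, 2681, 3815 and 2230 in the SAHA arrays and 3261, 2467 and 1988 in the CI-994 arrays. The correlation of Mt2 and Mt3 was -0.016 in PFC with BeadChip means removed, and 0.19 in NAc with treatment means kept. Without the 2 farthest pools r in PFC was -0.22 for Mt1 and Mt2, -0.54 for Mt1 and Mt3 and -0.37 for Mt2 and Mt3, and in NAc 0.00077 for Mt2 and Mt3. Without Cpd-60 pool 2 the 3 values in PFC were -0.25, -0.36 and -0.048.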
